A study of Paeonia lactiflora with 9 samples.

Results

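Biotin carboxyl carrier protein (BCCP) is the subunit of plastid acetyl-CoA carboxylase (ACCase) that carries biotin. The 7 unigenes described here are those listed as *BCCP* among the differentially expressed oil biosynthesis unigenes in the study's supplement, matched by name to the 125685 unigenes with deposited FPKM values. They are CL14917.Contig1_All, CL14917.Contig2_All, CL6718.Contig4_All, CL750.Contig1_All, CL750.Contig2_All, CL750.Contig6_All and Unigene23603_All, and all 7 were found. The study selected them on the same stage comparisons that are described below, so their differences between stages are given as a description. Where it is said how many of them were past the limits of a fit, that too describes the choice and supports nothing. A wider set of 17 BCCP unigenes was formed from these 7 and 10 further contigs of the study's BCCP sequence list. BCCP is used throughout as the name in the study's lists, although 5 contigs of the set showed no biotin-attachment motif, as described below.

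The samples were developing seeds of *Paeonia lactiflora* ‘Hangshao’, a cultivar of herbaceous peony grown for its root and studied for its seed oil, with no treatment and no genetic change. There were 9 libraries, 3 each from seeds at 30, 60 and 90 days after flowering (DAF), from young seeds to seeds near maturity. By the study's methods the seeds came from 1 plant, and those for sequencing from 1 strain. The spread between libraries, and the SEs below, therefore cannot be taken to cover the spread between plants. The 10 oleosin and caleosin unigenes of the same list encode the coat proteins of seed oil bodies. They summed to 1268 ± 65.5, 7252 ± 1954 and 11146 ± 2780 FPKM at 30, 60 and 90 DAF (SD, n = 3 each). These unigenes were also chosen on these libraries, so the differences between the sums describe that choice. Fewer cells of a type and less RNA per cell cannot be told apart in whole seeds.

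ACCase makes malonyl-CoA from acetyl-CoA, the first committed step of fatty acid synthesis in plastids. In the form found in the plastids of most plants, biotin carboxylase (BC) loads carbon dioxide onto biotin, BCCP holds this biotin on a swinging arm, and the alpha and beta carboxyltransferase subunits (α-CT and β-CT) pass the carboxyl group on to acetyl-CoA. The biotin is attached to the lysine of a conserved Met-Lys pair near the end of BCCP. In *Arabidopsis*, proteins that resemble BCCP but lack this lysine are also known, and they bind the complex and lower its activity.

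The sequences of 16 of the 17 unigenes were read from the study's list, while that of Unigene23603_All was not analysed here. In the longest reading frame of 11 of these contigs a single Met-Lys pair was found inside the motif searched, alanine or valine, Met-Lys, then leucine or methionine. The 5 contigs of CL14917 and CL4684 held no match in that frame. A CL number marks contigs that the assembly placed in 1 cluster of similar transcripts. The stretches below are shown because they hold the one feature that divides the set, with the Met-Lys codons, or the codons aligned with them, in capitals. Each runs 5′ to 3′ along the reading frame and has 30 bases on either side of the capitals.
CL750.Contig2_All: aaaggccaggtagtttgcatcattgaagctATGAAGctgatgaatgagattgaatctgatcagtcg
CL6718.Contig4_All: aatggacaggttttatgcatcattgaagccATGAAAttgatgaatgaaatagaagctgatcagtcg
CL14917.Contig2_All: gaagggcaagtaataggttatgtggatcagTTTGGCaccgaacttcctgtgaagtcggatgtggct
CL4684.Contig2_All: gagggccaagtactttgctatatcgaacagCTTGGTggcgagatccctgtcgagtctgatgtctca

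The capitals encode Met-Lys in CL750.Contig2_All and CL6718.Contig4_All, Phe-Gly in CL14917.Contig2_All and Leu-Gly in CL4684.Contig2_All. The first pair differed at 11 of the 66 bases, and the last pair at 22. Between CL14917.Contig2_All and CL750.Contig2_All there were 41 differing bases. All 5 contigs of CL750 that were read, the 3 of CL4684 and both of CL14917 had the same 66 bases as the contig shown for their cluster. In CL6718, Contig5 alone differed from Contig4 in this window, by 7 bases. Thus 4 of the 6 members with a sequence carried Met-Lys at this place and 2, both of CL14917, did not.

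**Figure D1:**
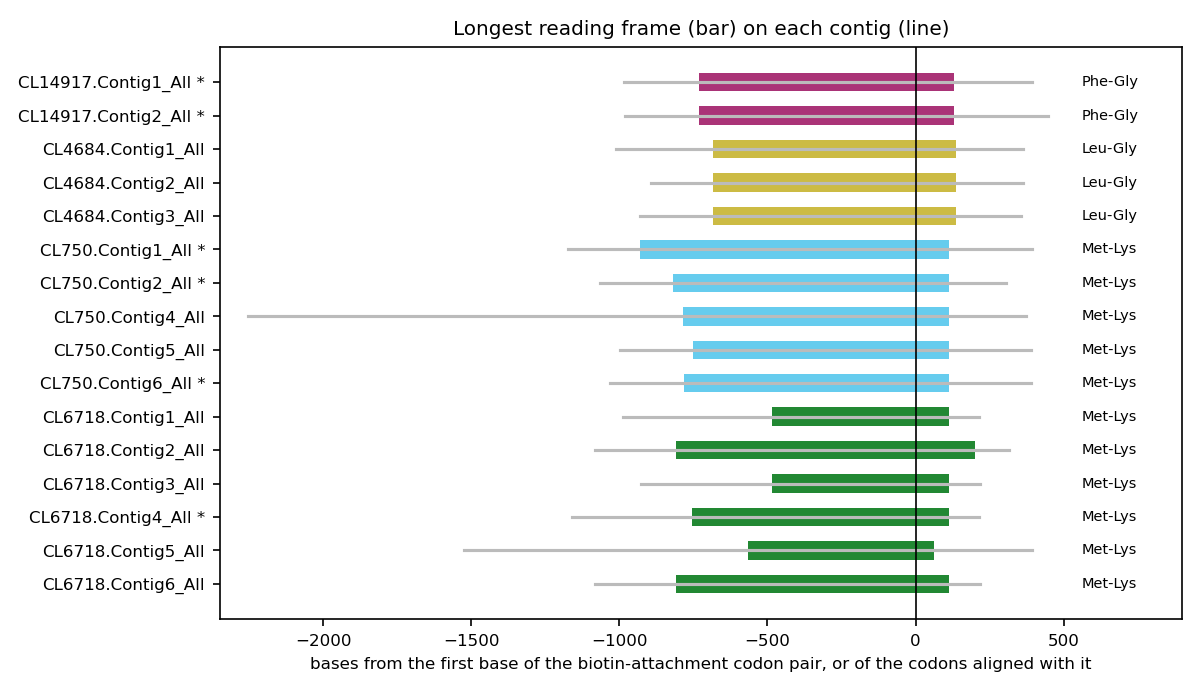
Longest reading frame (bar) on each of the 16 contigs (line), drawn by distance in bases from the first base of the Met-Lys codons or of the codons aligned with them (vertical line); colours mark the cluster, an asterisk a member of the 7, and the residue pair stands at the right. The frames of CL14917 reach 131 bases past the line and those of CL750 113 bases.

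The reading frames of CL14917.Contig1_All and CL14917.Contig2_All had 287 residues each. They differed by 1 base in the frame, T765G counted from the start of Contig1 in the coding direction, and the 2 translations were 99.7% identical. A stretch of 61 bases after the stop codon was present in Contig2 and not in Contig1. With CL4684 their translations shared 46.1% of aligned residues. With CL750 they shared 26.7% to 31.4%, and with CL6718 27.6% to 30.7%, so the 2 clusters without Met-Lys were closer to each other than to the 2 with it. Identity between CL750 and CL6718 ran from 54.2% to 74.3%.

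The 3 members of CL750 differed in length by stretches inside the reading frame. CL750.Contig1_All had 347 residues, CL750.Contig2_All 310 and CL750.Contig6_All 298. Contig1 held 111 bases that Contig2 did not, at bases 456 to 566 of its coding strand. Contig2 held 36 bases that Contig6 did not, at bases 574 to 609, and these were a copy of a tandem repeat, since the gap could be set up to 71 bases nearer the start with the same result. These stretches are printed because reads can be given to 1 contig and not another only over bases that differ.
CL750.Contig1_All against Contig2: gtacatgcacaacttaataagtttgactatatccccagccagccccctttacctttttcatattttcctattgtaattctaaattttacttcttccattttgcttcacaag
CL750.Contig2_All against Contig6: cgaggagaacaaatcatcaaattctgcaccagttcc

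CL6718.Contig4_All differed from CL6718.Contig6_All, apart from 2 bases at the end, only by 79 further bases at 405 to 483. The longest reading frame of Contig4, with 289 residues, began inside this stretch at base 406, and that of Contig6, with 307 residues, began before it. The last 263 residues were the same in both, and 26 residues of Contig4 and 44 of Contig6 were their own. The coding part of the stretch is given with its start codon in capitals, because it is what sets the contig that was highest at 90 DAF apart from its nearest relative.
CL6718.Contig4_All: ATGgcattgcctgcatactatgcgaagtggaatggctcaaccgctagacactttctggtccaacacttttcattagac

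FPKM values are fragments per kilobase of transcript relative to all mapped fragments, so levels are given per length and can be set beside each other. The fit took in the 55192 unigenes that reached 0.5 FPKM in 3 or more libraries, among them all 7 members and 14 of the 17 BCCP unigenes. Log2 changes below come from limma on log2(FPKM + 0.5), where the change of a low unigene comes out too small, and are given ± SE. The change of the median unigene was -0.31 at 60 against 30 DAF (Group I), 0.36 at 90 against 60 DAF (Group II) and 0.06 at 90 against 30 DAF (Group III). Under median-of-ratios scaling, which sets the middle of each library equal, these medians were -0.03, -0.04 and -0.07. Pearson's r between libraries of 1 stage, across unigenes, was 0.814 to 0.949. RSEM can divide reads between contigs of 1 cluster, so the sum over each cluster is given beside its contigs.

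Unigene23603_All was the highest of the 7 at each stage. It had 48.5, 47.0 and 52.9 FPKM in the libraries at 30 DAF, 19.7, 20.3 and 19.6 at 60 DAF and 9.97, 5.95 and 6.10 in the 90 DAF libraries. The 3 stages did not overlap, and the libraries at 60 DAF lay closest together. Its log2 change was -1.29 ± 0.19 in Group I and -1.41 ± 0.19 in Group II, with -2.71 ± 0.19 in Group III. Relative to the median unigene these were -0.99, -1.77 and -2.77. Under median-of-ratios scaling the change in Group I was -0.88 and under quantile normalization -0.91, both inside the limit of 1.

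The 2 contigs of CL14917, without the biotin-attachment Met-Lys, had the next highest levels at 30 and 60 DAF. CL14917.Contig1_All had 32.5, 49.5 and 35.8 FPKM at 30 DAF, 8.97, 7.21 and 11.5 at 60 DAF and 2.28, 1.53 and 2.43 in the 90 DAF libraries. CL14917.Contig2_All had 36.7, 45.9 and 37.3 FPKM at 30 DAF, 8.76, 7.61 and 9.14 at 60 DAF and 1.95, 2.15 and 2.58 in the 90 DAF libraries. For both contigs every library of a later stage lay below every library of an earlier one, and replicate 2 was the highest at 30 DAF. Contig1 held 49.2% ± 2.50, 51.7% ± 3.67 and 48.0% ± 6.18 of the cluster at 30, 60 and 90 DAF (SD, n = 3 each), close to an even division between 2 almost identical sequences. The cluster sum had log2 changes of -2.13 ± 0.18 in Group I and -1.92 ± 0.18 in Group II, with -4.05 ± 0.18 in Group III. The single contigs had -3.94 ± 0.24 and -3.89 ± 0.16 in Group III, further from 0 than any other member.

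At 30 DAF the CL14917 sum was above Unigene23603_All, with ratios of 1.43, 2.03 and 1.38 in the 3 libraries. At 60 DAF the ratios were 0.899, 0.729 and 1.06, on both sides of 1. At 90 DAF the sum was below, with ratios of 0.424, 0.619 and 0.821. All libraries of a stage thus gave the same order at 30 and 90 DAF only.

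The 3 members of CL750, with Met-Lys, were lower. CL750.Contig2_All had 7.36, 4.41 and 8.68 FPKM at 30 DAF, 2.09, 1.52 and 0.96 at 60 DAF and 1.81, 1.22 and 0.59 in the 90 DAF libraries. CL750.Contig6_All had 4.22, 3.33 and 2.43 FPKM at 30 DAF, 1.09, 1.04 and 0.41 at 60 DAF and 0.52, 0.61 and 0.60 in the 90 DAF libraries. In both, all libraries at 30 DAF lay above all later ones, while 60 and 90 DAF overlapped. CL750.Contig1_All had 4.03, 0.96 and 6.06 FPKM at 30 DAF, 0.45, 0.82 and 0.19 at 60 DAF and 1.14, 0.10 and a listed 0 in the 90 DAF libraries. Its 30 DAF libraries spread widely and the lowest of them was below the highest at 90 DAF. The SE of its log2 change, 0.63, was the largest of the 7, with changes of -1.88 in Group I and -2.15 in Group III.

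Summed over the 5 of its 6 contigs that are in the study's lists, CL750 had 17.7 ± 1.91, 4.79 ± 1.05 and 4.33 ± 0.903 FPKM at 30, 60 and 90 DAF (SD, n = 3 each). With CL750.Contig3_All, the contig outside those lists, added, the means were 18.4, 4.84 and 4.41 FPKM. The log2 changes were fitted on this sum of all 6 contigs, with an SE below that of each of the 5. They were -1.83 ± 0.20 in Group I and -0.12 ± 0.20 in Group II, with -1.95 ± 0.20 in Group III. Under median-of-ratios scaling the change in Group II was -0.69, so the size of the difference between 60 and 90 DAF depended on the scaling.

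CL6718.Contig4_All, with Met-Lys, had the opposite pattern. It had 0.53, 0.18 and a listed 0 FPKM at 30 DAF, 0.53, 0.16 and a listed 0 at 60 DAF and 3.23, 3.21 and 2.0 in the 90 DAF libraries. Each library at 90 DAF lay above all 6 earlier ones. The fitted log2 changes were -0.01 ± 0.37 in Group I and 2.22 ± 0.37 in Group II, with 2.21 ± 0.37 in Group III. They depend on the 0.5 added before the logarithm, since Group II gave 3.49 with 0.1 added and 1.64 with 1 added. The low values at 30 and 60 DAF rest on few reads, and a listed 0 does not show absence.

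**Figure D2:**
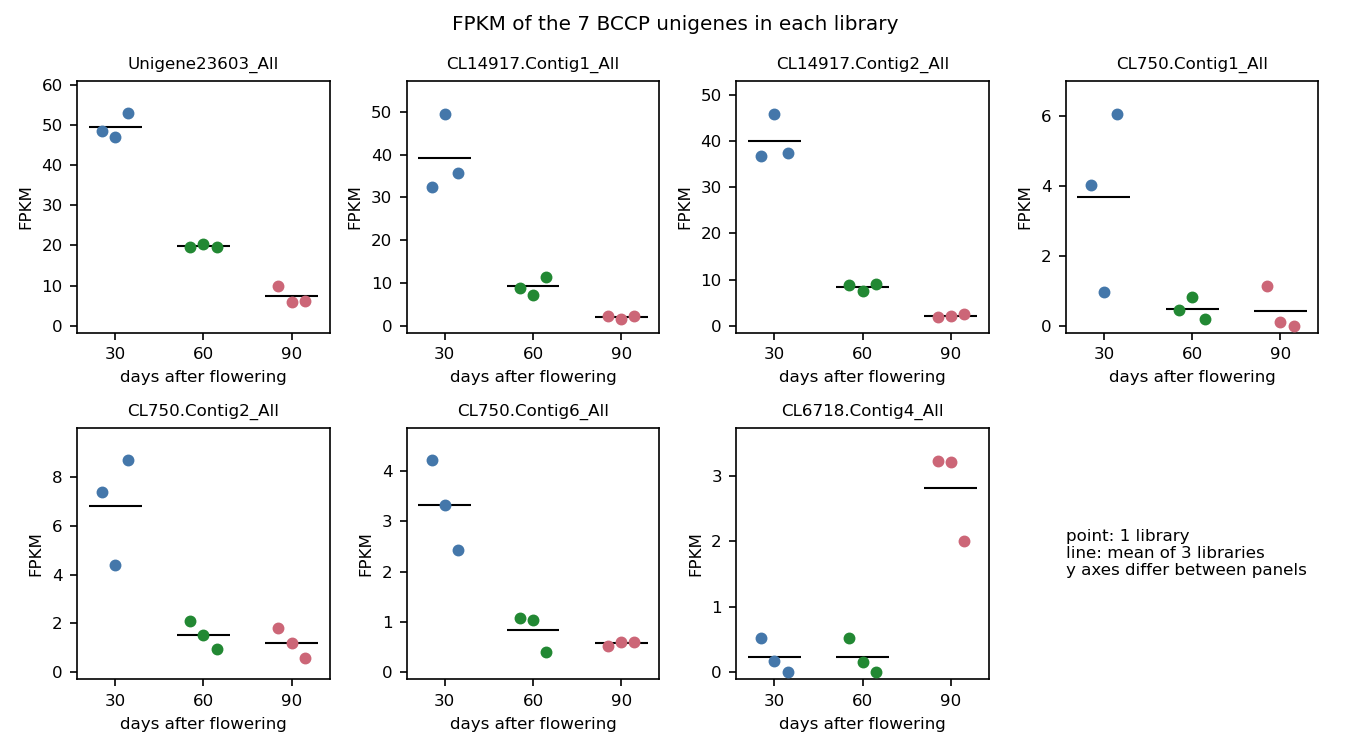
FPKM (y axis, with its own range in each panel) of the 7 BCCP unigenes in each library at 30, 60 and 90 days after flowering (x axis); points are libraries and lines the means of 3. In 6 panels the mean at 30 DAF is the highest, and in CL6718.Contig4_All that at 90 DAF.

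In the order of mean FPKM at 30 DAF, Unigene23603_All led with 49.5, followed by CL14917.Contig2_All with 40.0 and CL14917.Contig1_All with 39.2. The libraries of these 3 overlapped except between Unigene23603_All and CL14917.Contig2_All, whose highest library, 45.9, was just below the lowest of Unigene23603_All, 47.0. CL750.Contig2_All, CL750.Contig1_All and CL750.Contig6_All came next, each overlapping with its neighbour although CL750.Contig2_All lay wholly above CL750.Contig6_All, and CL6718.Contig4_All was last. At 90 DAF CL6718.Contig4_All had moved to the second place, where its libraries overlapped with those of CL14917.Contig2_All and CL14917.Contig1_All. Unigene23603_All, first at all 3 stages, overlapped with no other member at 60 or 90 DAF.

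Of the 7 members, 5 were past both limits of the fit (a log2 change of 1 or more in size and, by limma, a p of 0.05 or less after Benjamini-Hochberg adjustment over all tested unigenes) and lower at 60 than at 30 DAF. Over all tested unigenes 6.33% were so and lower, and 1.72% were so and higher. At 90 against 60 DAF 3 members were lower and 1 was higher, where 9.41% of all tested unigenes were lower and 18.2% higher. Under median-of-ratios scaling this balance over all unigenes turned round, with 14.1% lower and 7.5% higher, while the members again gave 3 lower and 1 higher. At 90 against 30 DAF 6 members were lower and 1 was higher, where 16.5% of all were lower and 13.7% higher. Because the study chose the members on these contrasts, these counts say nothing about BCCP beyond the choice. Without replicate 1 at 30 DAF, 3 members were past both limits in Group I. The median log2 change of the 7 was -1.85 in Group I and -0.28 in Group II, with -2.15 in Group III.

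The choice required a log2 ratio of FPKM over 1 or under -1 between a pair of stages. The member nearest to that limit was CL750.Contig2_All, whose largest log2 ratio of stage means was 2.50 in size. Among the 10 other BCCP unigenes, 3 lay inside the limit, CL4684.Contig3_All at 0.69, CL750.Contig5_All at 0.82 and CL4684.Contig2_All at 0.90. The remaining 7 were beyond it by this ratio, the nearest of them CL6718.Contig6_All at 1.17, but were not in the study's list, for which a unigene also had to be a DEG by the study's own test, and from which contigs of 1 enzyme with identical sequence had been dropped.

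**Figure D3:**
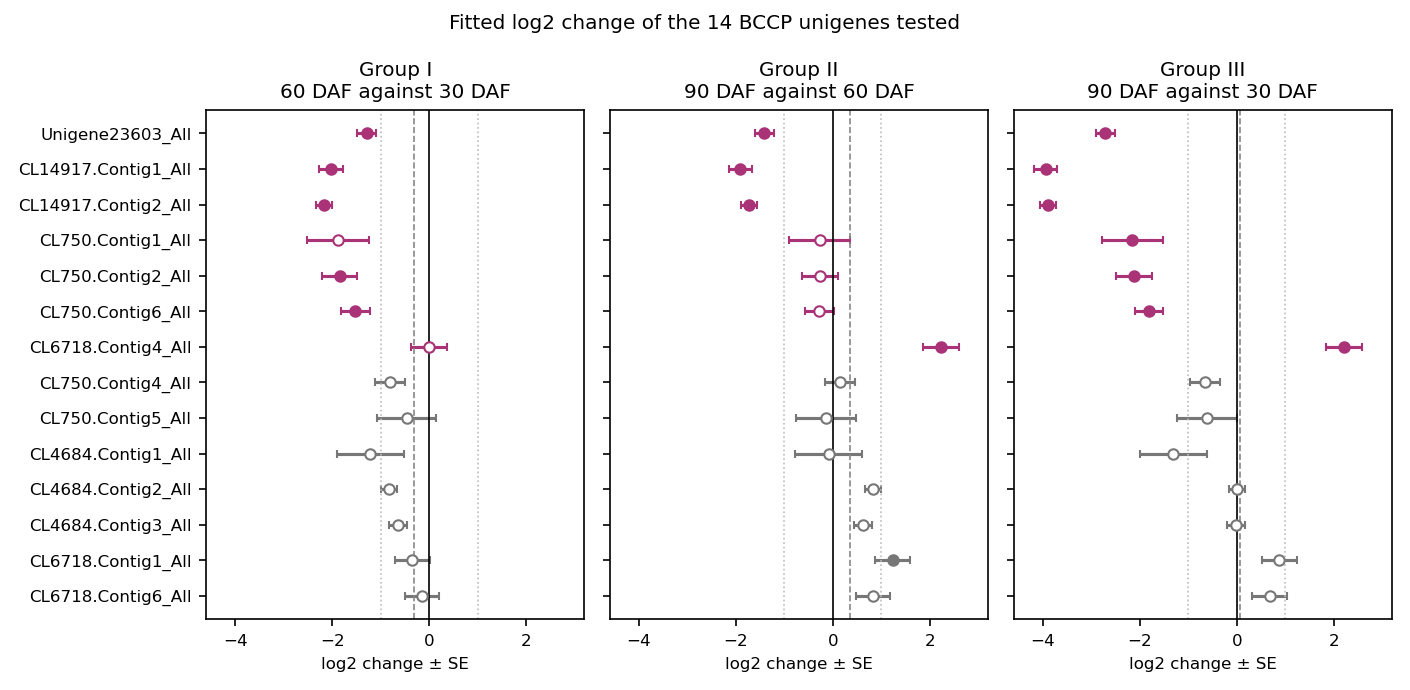
Log2 change ± SE (x axis) of the 14 fitted BCCP unigenes in Groups I, II and III, the 7 members in purple above the 7 others in grey; filled points passed both limits, the dashed line is the median of all tested unigenes and dotted lines mark -1 and 1. CL6718.Contig4_All lies at 2.22 in Group II, opposite to the other filled members.

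The 10 BCCP unigenes outside the list behaved differently by cluster. CL4684.Contig2_All and CL4684.Contig3_All, which lack Met-Lys, had 7.19 to 11.1 FPKM at 30 DAF, 4.25 to 6.24 at 60 DAF and 7.38 to 10 in the 90 DAF libraries, and CL4684.Contig1_All had 0 to 4.86 over all libraries. The CL4684 sum was 19.4, 23.8 and 18.9 FPKM at 30 DAF, 11.9, 9.73 and 11.7 at 60 DAF and 20.4, 19.8 and 15.2 in the 90 DAF libraries. All libraries at 60 DAF were below all others, and 30 and 90 DAF overlapped. The log2 change of the sum was -0.86 ± 0.16 in Group I and 0.70 ± 0.16 in Group II, with -0.16 ± 0.16 in Group III, all within the limit of 1. Under median-of-ratios scaling these changes were -0.46, 0.09 and -0.37, so the dip at 60 DAF depended on the scaling.

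The 5 other contigs of CL6718 were low, with at most 1.96 FPKM in any library. CL6718.Contig1_All had a log2 change of 1.23 ± 0.36 in Group II and was the only one of the 10 past both limits in any group on the deposited scale. It was not past them with 1 added (0.81), under median-of-ratios scaling (0.97), without replicate 1 (1.08) or replicate 2 (1.19) at 60 DAF, without the filter, in the fit of only 2 stages or at an adjusted p of 0.01. With the filter of 1 FPKM, without replicate 2 at 30 DAF and without replicate 2 or 3 at 90 DAF it was too low to be fitted. In Group III it was past both limits after quantile normalization (1.05) and without replicate 1 at 90 DAF (1.26), and CL6718.Contig6_All was so without replicate 3 at 30 DAF (1.04). CL6718.Contig2_All, CL6718.Contig3_All and CL6718.Contig5_All were too low to be fitted. The whole cluster of 6 summed to 1.98, 3.24 and 2.90 FPKM at 30 DAF, 1.71, 1.31 and 1.35 at 60 DAF and 6.19, 7.48 and 6.03 in the 90 DAF libraries. Its libraries at 90 DAF lay above all others, and those at 60 DAF below all others. The log2 change of the sum was 1.85 ± 0.21 in Group II, and 1.32 under median-of-ratios scaling. In Group III it was 1.16 ± 0.21, and 0.95 under that scaling. Of the cluster, Contig4 held 26.8%, 5.56% and 0% at 30 DAF, 31.0%, 12.2% and 0% at 60 DAF and 52.2%, 42.9% and 33.2% in the 90 DAF libraries.

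Over all 17 BCCP unigenes the summed FPKM was 157, 185 and 167 at 30 DAF, 57.0, 50.9 and 57.1 at 60 DAF and 44.9, 42.2 and 35.9 in the 90 DAF libraries. The ratio of stage means was 0.324 for 60 against 30 DAF, 0.746 for 90 against 60 DAF and 0.242 for 90 against 30 DAF. For the 7 members alone the same ratios were 0.285, 0.409 and 0.117. Under median-of-ratios scaling the ratio for 90 against 60 DAF was lower, 0.483 for the 17 and 0.264 for the 7. The members held 84.2% ± 2.11 of the sum at 30 DAF, 74.1% ± 1.71 at 60 DAF and 40.5% ± 5.80 in the 90 DAF libraries (SD, n = 3 each). The other 10 unigenes thus made up most of the summed FPKM of the 17 in each library at 90 DAF, where the members held 46.5%, 35.0% and 39.8%. Most of those 10 by FPKM at 90 DAF was CL4684, without Met-Lys, with 18.5 ± 2.84 FPKM. In FPKM the 10 summed to 27.0 ± 5.77, 14.3 ± 1.83 and 24.3 ± 2.93 at 30, 60 and 90 DAF (SD, n = 3 each). The members were listed for changing between these stages, so their falling share describes that choice as well.

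The makeup of the sum shifted, with a lower share for CL14917 and higher shares for CL4684 and CL6718 at 90 DAF. CL14917 held 46.4% ± 4.45, 32.2% ± 3.65 and 10.7% ± 2.84 of it at 30, 60 and 90 DAF (SD, n = 3 each). CL4684 held 12.2% ± 0.786, 20.2% ± 0.946 and 44.9% ± 2.31, and CL6718 1.58% ± 0.281, 2.65% ± 0.323 and 16.1% ± 2.06. In these 3 clusters no library overlapped between 90 DAF and an earlier stage. The higher share of CL4684 came without a higher level, with 20.7 ± 2.69 FPKM at 30 DAF and 18.5 ± 2.84 at 90 DAF. The CL6718 sum was also higher in FPKM, with 2.71 ± 0.652 at 30 DAF and 6.57 ± 0.795 at 90 DAF. CL750 held 10.5% ± 1.83, 8.73% ± 1.87 and 10.6% ± 1.83, with overlap between all stages. Unigene23603_All held 29.3% ± 3.40, 36.3% ± 3.21 and 17.8% ± 4.11. These shares are taken within a library and do not depend on its scaling.

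**Figure D4:**
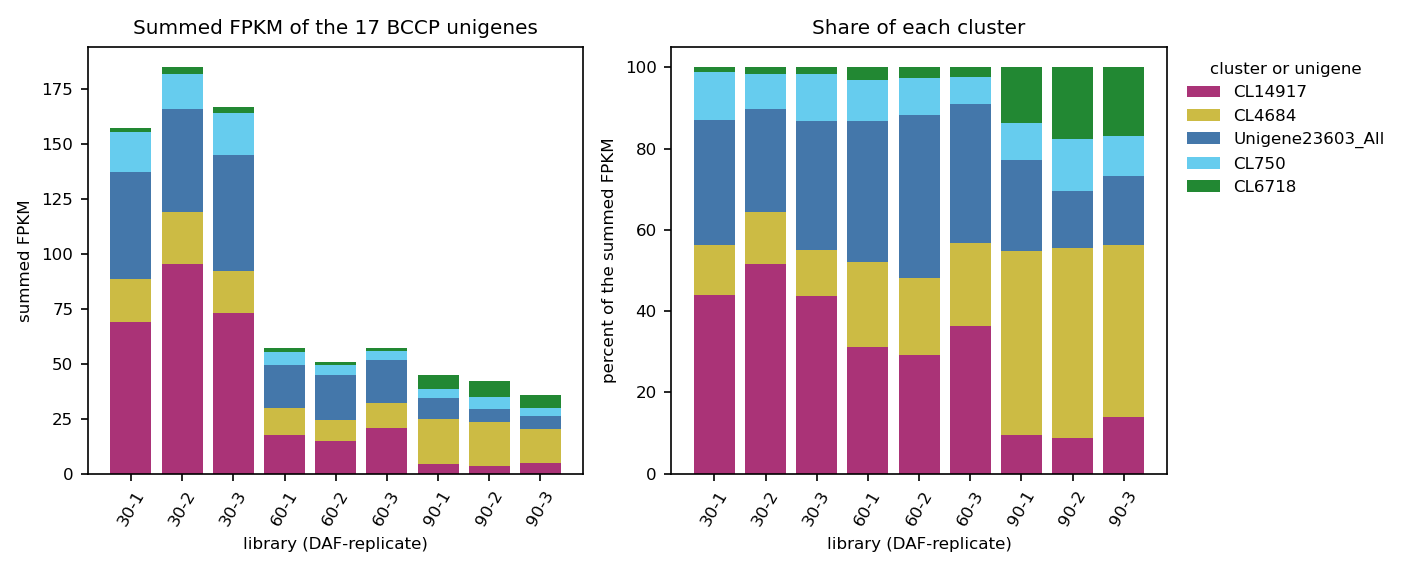
Summed FPKM of the 17 BCCP unigenes in each library (left) and the percent of that sum held by each cluster or by Unigene23603_All (right); x axes give the stage in DAF and the replicate. CL4684 takes 42.3% to 46.8% of the sum at 90 DAF and 11.3% to 12.9% at 30 DAF.

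Contigs without Met-Lys held overlapping shares of the sum at the 3 stages, as the share of CL14917 was lower and that of CL4684 higher at 90 DAF. Their share was 56.3%, 64.5% and 55.1% at 30 DAF, 52.1%, 48.3% and 56.7% at 60 DAF and 54.9%, 55.5% and 56.3% in the 90 DAF libraries. The 11 contigs in which Met-Lys was found held 12.1% ± 1.69, 11.4% ± 2.17 and 26.7% ± 3.72, and Unigene23603_All, whose kind is not known here, held the rest. No test was made, since 2 clusters on one side and 2 on the other are not replicates.

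The other ACCase subunits of the same list were 5 BC and 3 α-CT unigenes, with no β-CT, whose gene lies in the plastid genome in most plants. They too were chosen by the study on these contrasts. The 5 BC unigenes summed to 85.8 ± 7.89, 22.2 ± 1.84 and 4.08 ± 0.630 FPKM at 30, 60 and 90 DAF, and the 3 α-CT unigenes to 70.1 ± 4.94, 22.1 ± 0.748 and 13.1 ± 0.864 (SD, n = 3 each). The ratio of stage means at 90 against 30 DAF was 0.0476 for BC and 0.186 for α-CT, on either side of the 0.117 of the 7 BCCP. All 8 were past both limits and lower at 90 than at 30 DAF, where 16.5% of all tested unigenes were so. At 60 against 30 DAF it was 6 of 8, against 6.33% of all, or 4 of 8 under median-of-ratios scaling, against 3.55%.

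The sum of the 7 BCCP over that of the 8 BC and α-CT unigenes was 0.929, 0.924 and 0.896 at 30 DAF, 0.950, 0.922 and 0.887 at 60 DAF and 1.23, 0.910 and 0.789 in the 90 DAF libraries. All 3 stages overlapped, and replicate 1 at 90 DAF stood highest. The sum of the 7 includes CL14917, without Met-Lys, which had 79.2 of its 143 FPKM at 30 DAF, so the ratio is not one of biotin carriers alone. Replicate 1 at 90 DAF also had the highest Unigene23603_All value of its stage.

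**Figure D5:**
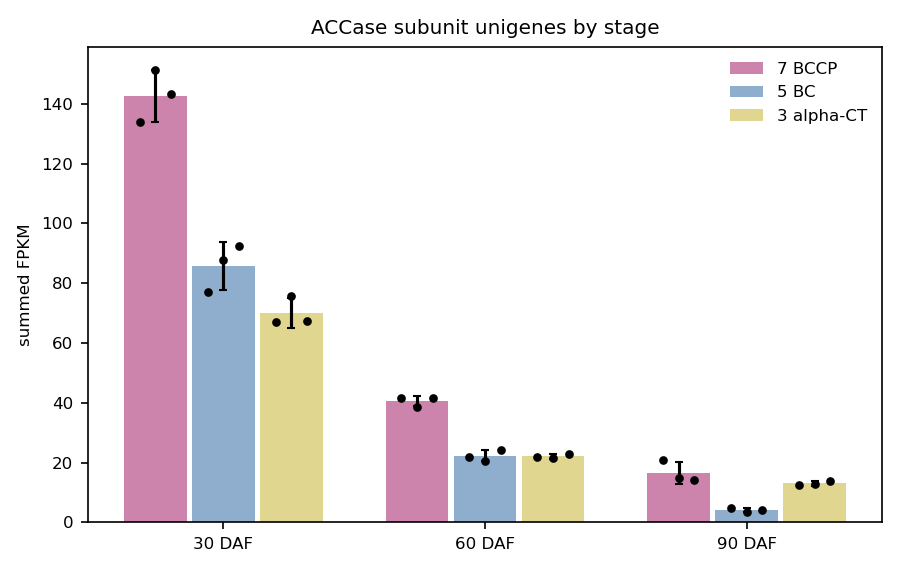
Summed FPKM (y axis) of the 7 BCCP, 5 BC and 3 α-CT unigenes at 30, 60 and 90 DAF; bars are means of 3 libraries, error bars SDs and points the libraries. At 90 DAF BCCP averaged 16.7, α-CT 13.1 and BC 4.08.

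Among the other 24 fatty acid biosynthesis unigenes of the list, which encode the enzymes of malonyl transfer and of the cycles of chain growth and the thioesterases that release the finished chain, 23 were fitted. All 24 were chosen by the study on these contrasts, so the counts describe that choice. At 60 against 30 DAF 14 were past both limits and lower and 1 higher, where 6.33% of all tested unigenes were lower and 1.72% higher. At 90 against 60 DAF 6 were lower and 4 higher, where 9.41% of all were lower and 18.2% higher. At 90 against 30 DAF 16 were lower and 4 higher, where 16.5% of all were lower and 13.7% higher. Under median-of-ratios scaling 10 were lower at 60 than at 30 DAF, against 3.55% of all, and 12 at 90 than at 60 DAF, against 14.1%. The counts of higher unigenes were the same. The 4 that were higher at 90 than at 30 DAF all encode 3-oxoacyl-ACP reductase (KAR), the enzyme of the first reduction in each cycle, and CL6718.Contig4_All was the only other unigene of the 39 fatty acid biosynthesis unigenes past both limits in that direction. The lowest log2 change in Group III was -6.52, in CL7296.Contig2_All, an enoyl-ACP reductase, the enzyme of the second reduction. The highest was 8.86 ± 0.61, in CL2376.Contig2_All, a KAR. In the same cluster CL2376.Contig1_All had 1.95 ± 1.89 and CL2376.Contig3_All -1.12 ± 1.79, neither past both limits. Reads may be divided between these contigs, and no sum over their cluster is given. The lowest and the highest change lie well outside the range of the BCCP members, -3.94 to 2.21.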

How the data were processed

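RNA from 9 seed libraries, 3 each at 30, 60 and 90 DAF, had been sequenced. The authors assembled unigenes without a reference genome, mapped clean reads to them by Bowtie2, and deposited the FPKM value that RSEM gave each unigene in each library. Versions of these tools: not given in the sources used here. DEGs were called by the authors with DESeq2, a tool for counts. Of 125694 lines, 9 without a unigene were left out. Read counts were not analysed here, but steps between low FPKM values gave depths of 0.871 to 1.07 relative to replicate 1 at 30 DAF. Precision is lowest under about 1 FPKM.

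All 9 libraries entered 1 limma fit (limma 3.58.1, R 4.3.3) of stage on log2(FPKM + 0.5) with a variance trend, over the 55192 unigenes that reached 0.5 FPKM in 3 or more libraries, because FPKM are not counts. In a test on simulated data with 200 changed unigenes the fit missed part of the imposed changes and fell short of the recovery first aimed for, and the aim was then reset, so a unigene that is not past the limits may still differ. Sequences were translated and aligned with Biopython 1.88 (BLOSUM62), and the remaining steps used Python 3.11.15 with pandas 2.3.3, numpy 2.4.6 and matplotlib 3.10.9.

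By rule, the 7 BCCP unigenes were named with every library, the 10 other BCCP unigenes by cluster, other fatty acid biosynthesis unigenes by counts, sums and extremes, and the 5 unigenes most like each of 3 patterns. Members and lists were chosen with earlier results of these data known. Fits were repeated adding 0.1 or 1, without the filter or with one of 1 FPKM, after median-of-ratios scaling or quantile normalization, on 2 stages alone, blocked by replicate number, with robust moderation, without the variance trend, at an adjusted p of 0.01 and without each library, and stage medians replaced means. Sums over clusters were added after seeing the data.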

Additional observations from a re-analysis of the deposited data

How the results depend on the processing

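Among the 7 BCCP unigenes, 16 of the log2 changes in the 3 groups were past both limits, and none of these changed sign under the alternatives. The number past both limits in Group I was 5, and 3 with an adjusted p of 0.01, for the 7 members and for all 17 alike. With single libraries left out it was 3 to 5 in Group I, for both sets, the lowest without replicate 1 at 30 DAF. Over 20 alternatives, the adjusted p of 0.01 included, 15 calls of the members were lost and 1 was gained, that of CL750.Contig1_All in Group I without replicate 2 at 30 DAF. Those lost belonged to CL750.Contig2_All, CL750.Contig6_All, CL750.Contig1_All and, under median-of-ratios scaling and quantile normalization in Group I, Unigene23603_All. CL750.Contig1_All lost its call in Group III in the fit of only 2 stages, at an adjusted p of 0.01 and without replicate 1 or 3 at 30 DAF or replicate 2 or 3 at 90 DAF. The added value and the scaling moved 22 of the 399 alternative values of the members by more than the residual SD of the fit, and no library left out did. Under median-of-ratios scaling the sum of the 7 members was 130, 49.7 and 13.1 FPKM at the 3 stages, against 143, 40.7 and 16.7 as deposited, which moved the ratio of 90 against 60 DAF to 0.264, against 0.409. Among the 10 other BCCP unigenes, where fitted, 7 calls were lost, all of CL6718.Contig1_All in Group II, and 3 gained, all in Group III. That unigene also dropped out of the fit, and so had no call, with the filter of 1 FPKM. The same held without replicate 2 at 30 DAF and without replicate 2 or 3 at 90 DAF.

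Libraries with the same replicate number did not deviate together (correlations -0.16 to 0.13, against -0.13 to 0.18 for other numbers), so the numbers do not pair them. With the replicate block the numbers of the 7 past both limits were 5, 4 and 7 in Groups I, II and III, as without it. At these depths values under about 1 FPKM, as in CL750.Contig1_All and CL6718.Contig4_All, rest on few reads.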

Other observations

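Among 452 other lipid unigenes of the study's lists that were fitted, the pattern of Unigene23603_All over the 9 libraries was most like that of CL6932.Contig3_All, a BC unigene (Pearson's r = 0.995 on log2(FPKM + 0.5)). The next 4 were CL2726.Contig2_All, annotated as ceramide galactosyltransferase, CL10423.Contig2_All, a sphinganine C4-monooxygenase, and CL476.Contig2_All and CL476.Contig3_All, both aldehyde dehydrogenases, with r of 0.993, 0.993, 0.990 and 0.990. The CL14917 sum was most like Unigene29944_All, a squalene monooxygenase, with r = 0.998, then CL4703.Contig8_All, an acylglycerol lipase, CL6932.Contig4_All, a BC unigene, Unigene27072_All, an alcohol dehydrogenase, and Unigene29386_All, a KASII unigene that extends acyl chains, with r of 0.996, 0.996, 0.994 and 0.993.

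For CL6718.Contig4_All the 5 most alike were CL3672.Contig1_All, an LPAAT unigene of triacylglycerol assembly, CL14704.Contig2_All, a beta-galactosidase, CL8879.Contig1_All, a soluble epoxide hydrolase, Unigene45448_All, a cytochrome P450, and Unigene12830_All, an acylglycerol lipase, with r of 0.965, 0.963, 0.956, 0.948 and 0.945. These correlations describe 9 libraries in 3 stages, which share their stage differences, and were picked as the highest of many. LPAAT CL3672.Contig1_All averaged 13.3, 14.7 and 42.0 FPKM at 30, 60 and 90 DAF.

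CL750.Contig3_All is a contig of the CL750 cluster in the deposited table but outside the study's BCCP lists, and its sequence was not read. The FPKM sums over 5 contigs and the shares of CL750 leave it out, while the log2 changes of the CL750 sum take it in. It had 0.57, 0.35 and 1.19 FPKM at 30 DAF, 0.06, 0.06 and 0.03 at 60 DAF and 0.22, a listed 0 and a listed 0 at 90 DAF.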
